A study of Mus musculus with 2 samples.

Results

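The genes examined here encode products that Th17 cells secrete. They are the cytokine genes Il17a, Il17f, Il21, Il22, Il10, Il9 and Csf2 and the chemokine gene Ccl20. They were chosen by symbol, 8 of the 23282 gene rows of the count tables, and all 8 have a row of their own. The comparison was between 2 libraries, 1 of Control cells and 1 of RV-Cre cells. Naive CD4 T cells from the spleen of Fak fl/fl mice, 6 to 8 weeks old, had been activated for 20 to 24 h and transduced with a control retrovirus (MIEG3) in the Control group, or with RV-Cre, a retrovirus that carries Cre recombinase, in the RV-Cre group. Both groups were then stimulated with anti-CD3ε (10 μg/ml) and anti-CD28 (5 μg/ml) for 3 days with IL-6 (50 ng/ml), TGFβ1 (1 ng/ml), TNF-alpha (1 ng/ml), IL-1beta (2 ng/ml) and antibodies that block IFNgamma and IL-4 (5 μg/ml each), and GFP+ cells were sorted for RNA. Both groups carry the floxed Fak allele and a retrovirus, and they differ by Cre. Cre acted in the transduced cells after activation, so the naive cells had Fak before transduction. For the Control sample the labels give WT as the genotype but Fak fl/fl with the control virus in the title, which was followed. The sources used here do not say how many mice the cells came from.

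Th17 cells are CD4 helper T cells that guard barrier surfaces against extracellular bacteria and fungi and that drive tissue damage in several autoimmune diseases. IL-6 with TGFβ induces them through STAT3, and their hallmark products IL-17A and IL-17F act on epithelial and stromal cells to recruit neutrophils. IL-21 acts back on T and B cells, IL-22 acts on epithelium, CCL20 attracts cells with its receptor CCR6, IL-10 restrains inflammation, and IL-9 and GM-CSF (encoded by Csf2) act on mast cells and myeloid cells, respectively.

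The libraries held 13799264 reads (Control) and 12305010 reads (RV-Cre), and were scaled with TMM size factors of 1.06 and 0.940. QuantSeq places its reads close to the 3′ end, so counts per 1000000 counted reads (CPM) do not grow with transcript length and are used here as levels without a length correction. A gene passed the minimum when its log2(normalized reads + 1) reached 4, that is 15 normalized reads, in either library. A gene was called lower or higher when the RV-Cre value differed from the Control value by at least 2-fold on that scale. Since each condition had 1 library, differences could not be checked against replicates and no p-values are printed. Every interval below is an exact 95% interval of counting error alone, with reads taken as independent, and it compares these libraries, not the conditions. Pairs of read numbers below give the Control library first and the RV-Cre library second. Ptk2, the gene for Fak, had 110 and 31 reads, a log2 ratio of -1.62. The deleted exon is not given in the sources used here, so the 3′ reads of Ptk2 may lie outside the deleted part. Gapdh had 956 and 634 reads (69.3 and 51.5 CPM), a log2 ratio of -0.42, in exons that overlap those of Iffo1. Actb, another reference gene, had 10729 and 17859 CPM. The scaling to Gapdh used below rests on this single Gapdh row. The ribosomal RNA gene Rn45s took 8.50% of Control reads and 14.6% of RV-Cre reads.

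The markers listed for CD4 T cells, the identity in the labels, were present in both libraries. Apart from Cd4 they are shared with other T cells, so the list cannot tell CD4 from CD8 T cells. All 10 CD4 T cell markers passed the minimum, with a summed 2143 CPM (Control) and 2970 CPM (RV-Cre). Cd4 itself had 1489 and 1342 reads (108 and 109 CPM), a log2 ratio of 0.02. Of these markers 2 were higher, Cd3d (log2 ratio 1.20) and Cd3e (1.16), and the lowest was Cd5 (-0.99). Transcripts of other cells were also present, at lower summed CPM than the CD4 T cell markers, and moved between the libraries. Of 12 myeloid markers 10 passed the minimum, at 16.5 CPM and 51.8 CPM in all, with Marco at 5 and 289 reads and Itgax at 27 and 1. The 10 did not move together, as 4 were higher, 2 were lower and 4 were under 2-fold. Csf1r (16 and 110 reads, in exons that overlap those of Hmgxb3) and S100a8 (6 and 69) were also higher. Lyz2 was lower (22 and 7), and Cd68 (63 and 58) and Fcgr3 (43 and 34) were under 2-fold. Adgre1 had 0 and 8 reads. Of 8 B cell markers 6 passed, at 4.86 and 13.8 CPM in all, with Fcer2a the highest (1 and 37 reads, log2 ratio 4.38), Cd79b the lowest (18 and 11 reads, log2 ratio -0.50) and Pax5 at 0 in both. Of 8 CD8 T and NK cell markers 5 passed, 2 of them higher and 2 lower, at 57.1 and 77.7 CPM in all. They ran from Cd8b1 (122 and 274 reads) to Klre1 (32 and 5 reads). Cd8a was higher, with 322 and 580 reads (23.3 and 47.1 CPM), and Gzma was lower, with 286 and 66. Gzmk had 0 reads in both libraries. Of 8 mast cell and basophil markers only Kit passed (84 and 115 reads), and Cpa3, Mcpt4, Tpsb2 and Fcer1a had 0 reads. Gamma delta T cells also make IL-17. Of 11 markers of theirs 6 have a row and 2 passed, Maf and Zbtb16 (13 and 52 reads), while Sox13 had 4 and 0 reads, Blk 3 and 0, and Cd163l1 and 5830411N06Rik 0. Maf is also expressed by Th17 cells. All 12 proliferation markers had a log2 ratio below 0, from Aurkb (-3.39) to Mcm5 (-0.84), and 10 of them were lower by at least 2-fold. Over all 12112 genes past the minimum, 12.3% were lower and 14.2% were higher. The part that these shifts have in the cytokine values was not tested. In bulk RNA, fewer cells that make a cytokine and less of its RNA per cell cannot be told apart.

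The annotation places 4 of the genes on chromosome 1. Positions are from GENCODE M21 on GRCm38, the same assembly as the mm10 build in the submitters' processing notes. Il17a (chr1:20730905-20734496, plus strand) and Il17f (chr1:20777146-20790617, minus strand) are neighbours 42.6 kb apart, and Ccl20 (chr1:83116766-83119167, plus strand) and Il10 (chr1:131019845-131024974, plus strand) lie elsewhere on that chromosome. Il21 is at chr3:37222759-37232636 (minus strand), Il22 at chr10:118204942-118210047 (plus strand), Il9 at chr13:56479277-56482246 (minus strand) and Csf2 at chr11:54247271-54249667 (minus strand). Exons of Il21 and Csf2 overlap those of the non-coding genes Gm12534 and Gm12223, which have no row in the tables.

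Sequences just upstream of the start site are shown for Il17a and Il17f, the hallmark pair of the lineage, for Ccl20, the gene with the lowest ratio, and for Il21, the most abundant gene of the group and one that stayed under 2-fold. Each is the 200 bases before the RefSeq start site on GRCm38.p6, read 5′ to 3′ on the strand of the gene, at chr1:20730705-20730904 (plus) for Il17a, chr1:20784271-20784470 (minus) for Il17f, chr1:83116566-83116765 (plus) for Ccl20 and chr3:37232637-37232836 (minus) for Il21. No annotated exon overlaps these windows. The Il17f window lies inside the GENCODE span of Il17f given above, so its RefSeq start site is not the outer end of that span. Capitals mark the letters of a TATA box or an NF-kB motif, searched on both strands.
Il17a: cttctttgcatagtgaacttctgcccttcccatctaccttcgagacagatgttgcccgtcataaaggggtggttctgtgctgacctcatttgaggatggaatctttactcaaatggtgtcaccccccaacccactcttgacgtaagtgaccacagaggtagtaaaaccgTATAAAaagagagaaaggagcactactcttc
Il17f: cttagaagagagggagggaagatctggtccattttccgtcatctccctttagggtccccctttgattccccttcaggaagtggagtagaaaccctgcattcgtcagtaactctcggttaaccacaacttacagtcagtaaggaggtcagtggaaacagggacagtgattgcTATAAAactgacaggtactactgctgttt
Ccl20: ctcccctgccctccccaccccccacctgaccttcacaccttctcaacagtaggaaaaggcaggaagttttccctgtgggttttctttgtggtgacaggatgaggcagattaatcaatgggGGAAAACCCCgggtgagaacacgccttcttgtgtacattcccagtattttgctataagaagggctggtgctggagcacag
Il21: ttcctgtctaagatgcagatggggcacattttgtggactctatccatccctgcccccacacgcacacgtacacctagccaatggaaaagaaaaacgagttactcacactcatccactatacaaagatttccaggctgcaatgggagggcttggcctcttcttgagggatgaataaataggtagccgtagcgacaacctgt

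Such windows matched 7 of the 8 members, all but Il10. The TATA box, spelled TATAAA, was found in 3 of these 7 windows and in 9.96% of all 32851 windows of that length, at -31 to -26 in Il17a, at -29 to -24 in Il17f and at -170 to -165 in Il22, counted from the start site. The Il22 window runs past the GENCODE start of Il22 and overlaps an annotated exon. An NF-kB match was found in 1 window, that of Ccl20 at -80 to -71 on the minus strand, and in 3.18% of all windows. It overlaps 1 of the 3 matches of the NFAT core (GGAAA) there, and that core was found in 5 of the 7 windows and 47.6% of all. An AP-1 motif (TGANTCA) was found in 1 window, Il9 at -140 to -134, against 5.48% of all, and a STAT motif (TTCNNNGAA) in 0 windows, against 5.49% of all. The motifs were chosen with the expression values known. A match describes letters in the window and shows no binding, and the lack of capitals in the Il21 window says only that the TATA box and NF-kB letters are not in it.

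**Figure D1:**
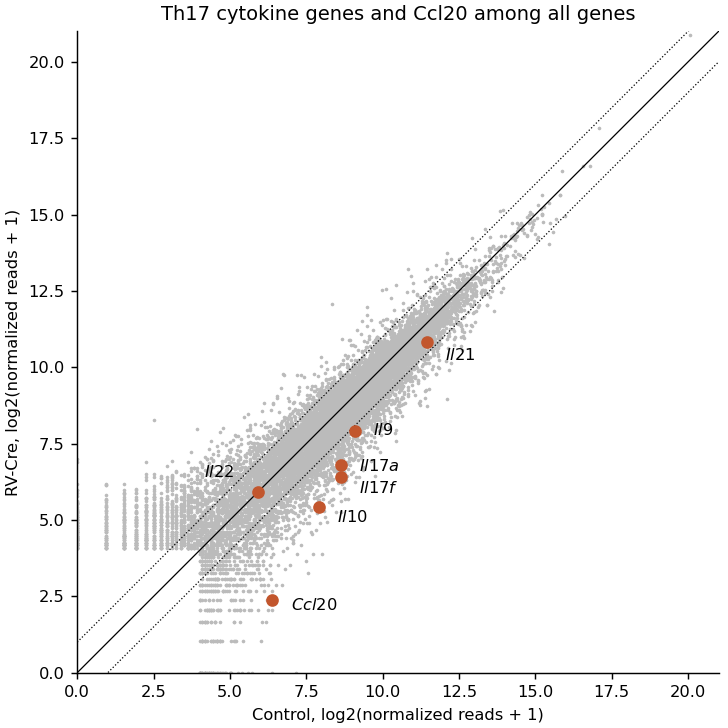
Each grey point is 1 of the 12112 genes past the minimum, with log2(normalized reads + 1) of the Control library on the x axis and of the RV-Cre library on the y axis. The solid line marks equal values and the dotted lines a 2-fold difference, and 5 of the 7 labelled genes lie below the lower dotted line, Ccl20 farthest from it.

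Of the 8 genes, 7 passed the minimum. In the RV-Cre library 5 of these were lower (Ccl20, Il10, Il17f, Il17a and Il9), 0 were higher, and 2 differed by less than 2-fold (Il21 and Il22). Over all 12112 genes that passed, 12.3% were lower and 14.2% were higher, that is 1491 and 1720 genes. That split was 780 and 3037 with the libraries scaled to Gapdh, and 3136 and 1037 with scaling to the CD4 T cell markers. Ccl20 passed the minimum through the Control library alone. The counting interval of the ratio lay below 1 for 6 of the 7 genes, against 38.1% of all genes, and wholly beyond 2-fold lower for 4 of them, against 6.98% of all genes. The median log2 ratio of the 7 genes was -1.86, beside -0.01 over all genes that passed. The direction of change varied with level, and among the 9688 genes that reached a log2 value of 6 in either library, which include 6 of the 7, 11.0% were lower and 7.58% were higher.

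**Figure D2:**
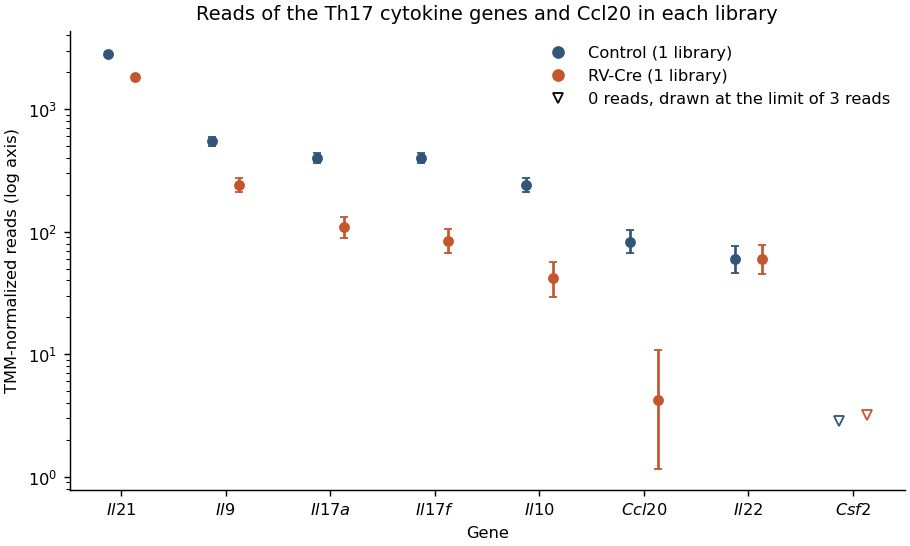
TMM-normalized reads (log axis) of each gene in the Control library (blue) and the RV-Cre library (orange), with exact 95% Poisson intervals, in order of Control reads. Il21 was highest in both libraries, the Il22 points coincide, Ccl20 had 4 RV-Cre reads, and the Csf2 triangles mark the limit of 3 reads set for 0 reads.

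Il17a encodes IL-17A, the cytokine that defines the lineage. It had 424 reads in Control cells and 103 in RV-Cre cells, or 30.7 and 8.37 CPM. The normalized ratio was 0.274 (95% interval 0.219 to 0.341) and the log2 ratio -1.86. Il17a was the 5140th most abundant gene with reads in the Control library and the 8184th in the RV-Cre library.

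Il17f encodes IL-17F, which pairs with IL-17A or with itself and signals through the same receptor. It had 421 and 79 reads, or 30.5 and 6.42 CPM, with a ratio of 0.212 (0.164 to 0.270) and a log2 ratio of -2.23. The Control levels of the pair could not be told apart by counting error, and in the RV-Cre library their intervals also overlapped. The longest annotated transcripts of the pair were identical at 70.6% of 1034 aligned bases. The other genes of the IL-17 family were at or near 0: Il17b, Il17c and Il25 had 0 reads in both libraries and Il17d had 1 and 0 reads.

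Several genes had a pair of values close to those of Il17a and Il17f. The nearest to Il17a in the plane of the log2 values of the libraries were Gpn2 (429 and 105 reads), Nme4 (418 and 100) and Pole2 (408 and 106), and 26 genes lay within 0.25 log2 units of it. The nearest to Il17f were Cenpa (424 and 78), Ppp4c (430 and 77) and Ptprf (423 and 85), with 16 genes within 0.25. Likeness over 2 libraries is a weak measure, and it gives these genes as description only.

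Il10 encodes the anti-inflammatory cytokine IL-10. It had 255 and 39 reads, or 18.5 and 3.17 CPM, a ratio of 0.173 (0.120 to 0.242) and a log2 ratio of -2.51. Il9, whose product is a growth factor of mast cells, had 578 and 226 reads, or 41.9 and 18.4 CPM, a ratio of 0.441 (0.377 to 0.515) and a log2 ratio of -1.18. The interval of Il9 reaches past a ratio of 0.5, so counting error alone leaves it on either side of the threshold. With scaling to Gapdh, the Il9 log2 ratio was -0.76 and its call was lost.

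Ccl20 encodes the ligand of CCR6 and had the lowest ratio of the group. It had 88 and 4 reads, or 6.38 and 0.325 CPM. That is a 19.5-fold difference, with an interval from 7.35-fold to 73.1-fold lower, and a log2 ratio of -4.00. The 4 reads make the size uncertain, and the whole interval lay beyond 2-fold. With a pseudocount of 10 in place of 1 the log2 ratio was -2.71.

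Il21, the most abundant gene of the group in both libraries, had 2987 and 1708 reads, or 216 and 139 CPM. Its ratio was 0.645 (0.608 to 0.685) and its log2 ratio -0.63, below 1 beyond counting error but under 2-fold. Il22, a cytokine of the IL-10 family, had 63 and 56 reads, or 4.57 and 4.55 CPM. Its ratio was 1.00 (0.687 to 1.46) and its log2 ratio 0.00, so that a difference of up to about 1.46-fold either way was not detectable at this depth. Il22 has a near copy, Iltifb, with transcripts identical at 97.4% of 1110 aligned bases, and reads from the copies may have been split. Iltifb had 5 and 0 reads, and with both summed the ratio was 0.929 (0.641 to 1.34). Csf2 had 0 reads in both libraries, which allows up to 3 reads, or 0.217 CPM (Control) and 0.244 CPM (RV-Cre). No ratio can be given for Csf2.

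**Figure D3:**
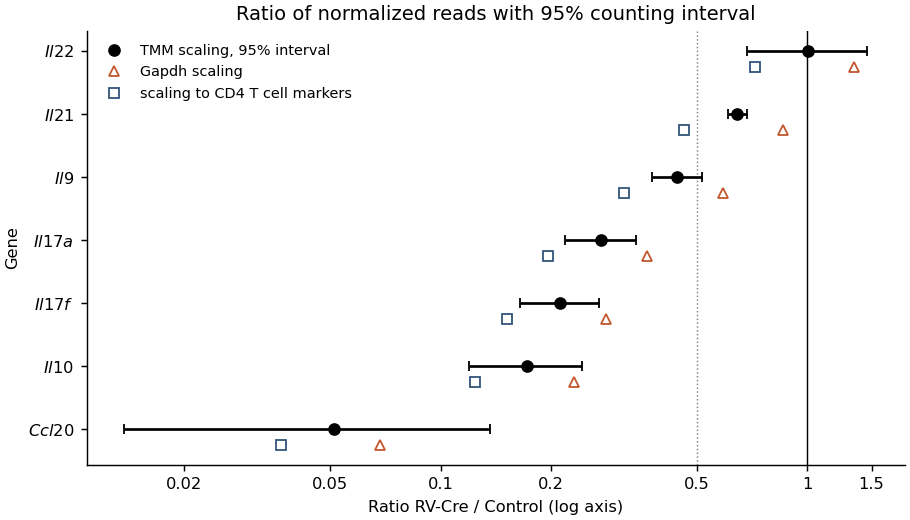
Ratio of RV-Cre to Control normalized reads (log axis) for the 7 genes past the minimum, with 95% counting intervals under TMM scaling (black), and the ratio when the libraries were scaled to Gapdh (triangles) or to the 10 CD4 T cell markers (squares). The solid line is equality and the dotted line 2-fold lower. Il9 crosses the 2-fold line under Gapdh scaling and Il21 under marker scaling, while Ccl20, Il10, Il17f and Il17a stay below it.

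The order of levels began with the same 4 genes in both libraries. In the Control library the order was Il21, Il9, Il17a, Il17f, Il10, Ccl20, Il22, and the intervals of Il17a and Il17f and those of Ccl20 and Il22 overlapped. In the RV-Cre library it was Il21, Il9, Il17a, Il17f, Il22, Il10, Ccl20, and the intervals of neighbours from Il17a to Il10 overlapped. Summed over the 8 genes, the reads were 4816 (349 CPM) and 2215 (180.0 CPM), a ratio of 0.519 (0.493 to 0.546). Without Il21 the sum was 1829 and 507 reads, a ratio of 0.313 (0.283 to 0.345). Il21 made up 62.0% of the reads of the 8 genes in the Control library (Clopper-Pearson 95% interval 60.6 to 63.4) and 77.1% in the RV-Cre library (75.3 to 78.8). The shares of Il17a (8.80% and 4.65%), Il17f (8.74% and 3.57%), Il10 (5.29% and 1.76%) and Ccl20 (1.83% and 0.181%) were lower in the RV-Cre library, and that of Il22 was higher (1.31% and 2.53%). The share of Il9 was 12.0% and 10.2%, with overlapping intervals.

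The changes of the genes were also compared with each other, which needs no scaling of the libraries. The ratio of each gene was divided by that of Il17a, as the odds ratio of the 4 raw counts with its exact interval. Ccl20 (0.187, interval 0.0488 to 0.515) and Il10 (0.630, 0.410 to 0.952) had a lower ratio than Il17a. Il9 (1.61, 1.23 to 2.12), Il21 (2.35, 1.88 to 2.97) and Il22 (3.65, 2.35 to 5.68) had a higher one. For Il17f the value was 0.773 and the interval, 0.551 to 1.08, held 1, so that a difference between the IL-17 genes was not detectable at this depth. Among neighbours in the order of change, the intervals excluded equality for Ccl20 against Il10 (0.298, 0.0752 to 0.861), Il17a against Il9 (0.622, 0.472 to 0.815), Il9 against Il21 (0.684, 0.577 to 0.808) and Il21 against Il22 (0.643, 0.439 to 0.944). That of Il10 against Il17f (0.815, 0.524 to 1.25) held 1.

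**Figure D4:**
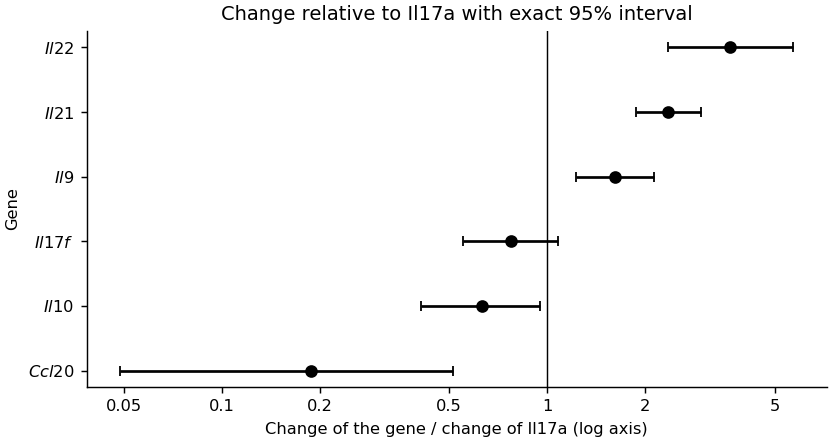
Change of each gene divided by the change of Il17a (log axis), from raw reads, with exact 95% intervals of counting error. Values left of the line at 1 are genes with a lower RV-Cre to Control ratio than Il17a (Ccl20 and Il10), those right of it genes with a higher ratio (Il9, Il21 and Il22), and the interval of Il17f holds 1.

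The receptor list holds the chains that bind these products and the other chains of the IL-17 receptor family. Of its 16 genes 11 passed the minimum, of which 5 were higher, 0 were lower and 6 were under 2-fold, with a median log2 ratio of 0.84. For this list and the lists below, the shares over all genes past the minimum were 14.2% higher and 12.3% lower. Of the 11, Csf2rb2, Il17rb and Il17rd passed through the RV-Cre library alone, and among the 8 that reached the minimum in both libraries 3 were higher and the median was 0.25. Il17ra, the chain shared by IL-17A and IL-17F, had 2157 and 6518 reads (log2 ratio 1.77), while its partner Il17rc had 0 and 1 read. Il21r, through which IL-21 acts on T cells, had 2156 and 5485 reads (1.52), and the chain it shares with other cytokine receptors, Il2rg, had 6163 and 5439 (-0.01). Il10ra had 42 and 105 reads (1.47), with Il10rb at 271 and 254 (0.08). Il17rb, a chain of the family that binds IL-25, which is none of the 8 products, had 12 and 26 reads (1.22), in exons that overlap those of Actr8. Csf2rb2, a paralog of Csf2rb whose reads may be split with it, had 8 and 45 reads (2.52), against 84 and 100 for Csf2rb (0.42), and Csf2ra had 80 and 51 (-0.47). Ccr6, the receptor of Ccl20 and itself a Th17 marker, had the lowest log2 ratio of the list, -0.77 (601 and 313 reads). Of the receptors of IL-22 and IL-9, Il22ra1 had 0 and 1 read and Il22ra2 and Il9r had 0. Csf2rb2 and Il10ra are also expressed by myeloid cells, whose markers summed to 16.5 and 51.8 CPM but moved both ways. The part of such cells in these values was not tested.

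Of the 10 receptor genes for the cytokines that induce Th17 cells 9 passed, of which 1 was higher, 2 were lower and 6 were under 2-fold (median -0.08). Il12rb1, a chain of the IL-23 receptor, had 673 and 140 reads (log2 ratio -2.08). Il1r1, the IL-1 receptor, had 88 and 24 (-1.66). Il6ra was higher, with 270 and 626 reads (1.38), and its signal-transducing partner Il6st had 492 and 572 (0.39). Il23r did not pass the minimum, with 9 and 10 reads.

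All 24 transcription factors reported for these genes passed the minimum, and 22 of them were under 2-fold, 1 was lower and 1 was higher (median -0.02). Of the 24, 12 had a log2 ratio below 0. Maf, which acts on Il10 and Il21, was lower (6445 and 2509 reads, log2 ratio -1.19). The number of lower factors was 0 with scaling to Gapdh and 4 with scaling to the CD4 T cell markers. The number of higher factors was 2 with scaling to Gapdh and 1 with scaling to those markers. Spi1 was higher, with 21 and 55 reads (1.52). It encodes PU.1, a factor of Il9 that is also a myeloid factor, and its level stood beside the mixed shifts of the myeloid markers given above. Factors that act on Il17a and that were under 2-fold included Stat3 (8830 and 8782 reads, 0.17), Rora (2605 and 1835, -0.33), Batf (2078 and 1267, -0.54) and Irf4 (10164 and 6316, -0.51). Ahr, a factor of Il22, had 1331 and 706 reads (-0.74). Of the NF-kB family, Nfkb1 had 2240 and 1087 reads (-0.87), Rel 232 and 163 (-0.33) and Rela 1437 and 1486 (0.22). Other factors under 2-fold had a log2 ratio above 0, among them Nfkbiz (627 and 1060 reads, 0.93), Ets1 (4088 and 4959, 0.45) and Bhlhe40 (662 and 778, 0.41). Exons of Stat3 overlap those of Stat5a.

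Of 22 other cytokine genes of T cells 17 passed, of which 9 were lower, 0 were higher and 8 were under 2-fold. Their median log2 ratio was -1.07, and the shares over all genes were 12.3% lower and 14.2% higher. Il13, Il1a, Il24 and Tnfsf11 passed through the Control library alone, and among the 13 that reached the minimum in both libraries 6 were lower and the median was -0.69. Lta, which encodes lymphotoxin alpha, had the lowest log2 ratio, -3.13 (4667 and 472 reads). Il24 had 71 and 7 reads (-3.01), Il13 50 and 5 (-2.93), Il1rn 590 and 79 (-2.71), Lif 1089 and 244 (-1.98) and Il1a 20 and 4 (-1.92). The Th1 cytokine genes Ifng (126 and 41, -1.42) and Tnf (1787 and 686, -1.21) and the T cell growth factor gene Il2 (602 and 254, -1.07) were also lower. The interval of the Il2 ratio, 0.410 to 0.552, held 0.5, so counting error alone leaves it on either side of the threshold. The number of lower genes in the list was 8 with library totals without Rn45s or with median centring. Il16 had the highest log2 ratio, 0.89 (1021 and 1676 reads), in exons that overlap those of Stard5. Whether the Th17 genes differ from these as a list was not tested.

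Beside Ccl20, 18 other chemokine genes were listed. Of these 16 passed, of which 4 were lower, 5 were higher and 7 were under 2-fold. Their median log2 ratio was 0.20, and the shares over all genes were 12.3% lower and 14.2% higher. The lower ones were Cxcl10 (106 and 19 reads, log2 ratio -2.25), Xcl1 (1441 and 320, -1.99), Cxcl3 (23 and 5, -1.84) and Ccl4 (1666 and 669, -1.14), of which Cxcl3 passed through the Control library alone. All 4 had a log2 ratio above the -4.00 of Ccl20. The higher ones were Cxcl2 (18 and 48, 1.53), Cxcl16 (110 and 281, 1.52), Ccl22 (137 and 337, 1.47), and Ccl1 and Ccl9 (16 and 30 each, 1.03). Exons of Cxcl16 and Cxcl10 overlap those of Zmynd15 and Art3. Several of these chemokines are also made by myeloid cells, whose markers summed to 16.5 and 51.8 CPM but moved both ways. The part of such cells was not tested.

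Short-lived cytokine RNAs are cleared or protected by RNA-binding proteins. Of 14 genes for proteins that shorten or lengthen the life of such RNAs, all passed. With scaling to the CD4 T cell markers 0 of the 14 were higher and 4 were lower. Under TMM scaling 3 were higher, 1 was lower and 10 were under 2-fold, with a median log2 ratio of -0.04. The shares over all genes under that scaling were 14.2% higher and 12.3% lower. Among the higher ones were Arid5a (1200 and 2304 reads, 1.11), known to stabilize cytokine RNA, and Zc3h12d (1480 and 2820, 1.10). Both are named after their values were seen. The highest was Zfp36 (401 and 820 reads, 1.20), which encodes tristetraprolin, and the lowest was Zfp36l2 (1260 and 505, -1.14). Among 12 markers of acute T cell activation 1 was higher, Icos (2526 and 4719, 1.08), 1 was lower, Myc (1678 and 315, -2.24), and 10 were under 2-fold. Among 12 reference genes 1 was lower, Eef1a1 (-1.40), and the highest was Actb (0.74).

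**Figure D5:**
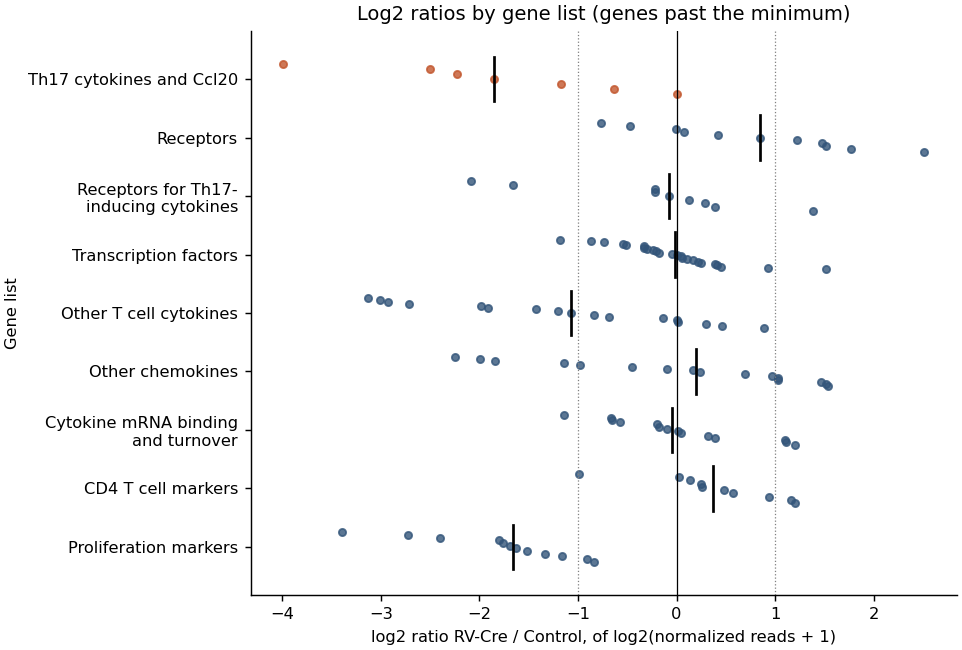
Log2 ratio of RV-Cre to Control for each gene past the minimum, by list, with the median of each list as a black bar and 2-fold as dotted lines. The Th17 cytokines and Ccl20 (orange) run from -4.00 to 0.00 with a median of -1.86, the receptor list has a median of 0.84, 3 of its 11 genes having passed through the RV-Cre library alone, and the other T cell cytokines one of -1.07.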

How the data were processed

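RNA from 1 Control and 1 RV-Cre library (500 ng each) was sequenced with the QuantSeq 3′ kit. The authors deposited raw counts per gene symbol, with no normalization. The submitters' processing notes name mm10, bcl2fastq 2.20.0.422, Bowtie2 and bedtools without roles, and whether strand was used is not given in the sources used here. Of the 23282 rows, 79 share a symbol with another row and were left out of gene lists.

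Counts were scaled with TMM factors (edgeR 4.0.16, R 4.3.3) and compared as log2(normalized reads + 1). Ratios carry exact Clopper-Pearson 95% intervals of the split of reads (scipy 1.17.1), and levels carry exact Poisson intervals. The reads have no molecular identifiers, so copies of the same molecule cannot be told from separate molecules. Intervals, and the upper limit of 3 set for 0 reads, hold counting error of independent reads and nothing else. With copied reads they would be too narrow. No test across genes was run, since there was 1 library per condition. The procedure was also run on simulated independent counts, the model that the intervals assume. Those counts held no variation between replicates and no copied reads, so the run cannot show how the intervals hold under either. A listed item was left out of the gene lists and is not reported here.

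The genes, gene lists and motifs were chosen with earlier results of these data known. Named were the 8 genes, Ptk2, Gapdh, the highest and lowest gene of each list, every 2-fold changed gene of the receptor, factor, cytokine and chemokine lists, other receptor chains or factors of the 8 genes, and the 3 genes nearest to Il17a and to Il17f. Marker genes at 0 and other markers, Il17 family genes and Rn45s were named after their values were seen. Alternatives were library totals with and without Rn45s, quantile normalization, median centring, size factors of DESeq2 1.42.0, scaling to Gapdh or to CD4 T cell markers, pseudocounts of 0.1 and 10, other minimums, fold thresholds of 1.5 and 3 and a 99% interval. Loess normalization (limma 3.58.1), summing Il22 with Iltifb and windows of 250 bases were chosen after seeing the data.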

Additional observations from a re-analysis of the deposited data

How the results depend on the processing

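Of 70 log2 ratios of the 7 genes under 10 alternatives, 58 moved by less than their counting interval and 12 moved by more. None of the 6 genes with an interval below 1 changed sign, and Il22, with a main value of 0.00, was below 0 in 5 of 10. Scaling to Gapdh, which raised the median log2 ratio of all genes to 0.44, gave -1.44 for Il17a, -1.81 for Il17f, -0.21 for Il21 and -0.76 for Il9. Scaling to the CD4 T cell markers, which lowered that median to -0.50, gave -2.33 for Il17a, -2.70 for Il17f, -1.11 for Il21 and -1.66 for Il9. Il21 was -0.54 with library totals without Rn45s, -0.53 with quantile normalization and -0.50 with loess normalization, and Ccl20 was -2.71 with a pseudocount of 10. The number of genes of the group that were lower was 5, except 4 with Gapdh scaling, a minimum in both libraries or a 3-fold threshold, and 6 with marker scaling or a 1.5-fold threshold, and 0 were higher in each case. Il22 ranged from -0.47 to 0.42. The higher and lower counts over all genes were 1720 and 1491, against 3037 and 780 with Gapdh scaling, 1037 and 3136 with marker scaling, 3265 and 2441 with no minimum, 734 and 1067 with a log2 minimum of 6, 758 and 1097 where both libraries had to reach 4, 2847 and 2777 at 1.5-fold, and 1008 and 669 at 3-fold. Of the receptors of the 8 genes, 6 were higher with Gapdh scaling, and 4 were higher and 1 lower with marker scaling. The median of the other chemokines was 0.61 with Gapdh scaling and turned to -0.26 with marker scaling. Of the other T cell cytokines, 7 were lower with Gapdh scaling and 11 with marker scaling. Windows of 250 bases held an AP-1 match in 2 of the genes, Il17a and Il9, instead of 1. The causes were not tested. Depth limits Ccl20, Il22 and Csf2 most. No paired analysis was possible because the labels number no replicates and give 1 library a group.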

Other observations

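Several of the 8 genes lie in cytokine clusters. Of 45 coding genes with a row within 250 kb of them, 24 passed the minimum, and 4 were lower and 4 were higher in the RV-Cre library. Over all genes that passed, 12.3% were lower and 14.2% were higher, and the neighbours were not tested against these shares. Il24 passed through the Control library alone, and Pkhd1 and Slc22a4 through the RV-Cre library alone. The following genes were chosen after their values were seen. Near Il10, Il24 (132.4 kb away) had 71 Control and 7 RV-Cre reads, while Il19 and Il20 had 0. Il2, 96.8 kb from Il21, had 602 and 254 reads. Near Il22, whose own reads were 63 and 56, Mdm1 (35.9 kb) had 101 and 20 reads (log2 ratio -2.11) and Ifng (231.0 kb) had 126 and 41. Il3, 15.6 kb from Csf2, had 25 and 20 reads where Csf2 had 0. The higher neighbours were Pkhd1, 112.8 kb from Il17a (4 and 36 reads, log2 ratio 3.04), Rassf5 (151.4 kb, 2112 and 3996, 1.09) and Ikbke (229.4 kb, 177 and 414, 1.39) near Il10, and Slc22a4, 219.2 kb from Csf2 (3 and 20, 2.54). Mcm3, 12.4 kb from Il17f, had 10333 and 4866 (log2 ratio -0.91).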
